A study of Mus musculus with 30 samples.

Results

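Heat shock proteins and chaperones were followed in mouse lung during low oxygen. The group held 10 genes: Hspa1a, Hspa1b, Hspb1, Dnajb1, Hsph1, Hsp90aa1, Hspd1, Hspe1, Hspa8 and Hspa5. Every probe set (a short set of oligonucleotides for 1 transcript) whose annotation named exactly one of these genes was taken, which gave 16 probe sets, 12 on the A array type, 1 on B and 3 on C. They stand among 36899 probe sets and 15965 genes with a single symbol on the 3 array types. The rule used gene names only and no measured value, but the genes were chosen with earlier results of these data known.

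Total RNA from mouse lung was run on Affymetrix MG-U74 version 2 arrays of types A, B and C. A group titled Norm, whose oxygen level and treatment the labels do not spell out, was set against animals held in a chamber at 10% oxygen for 10 h, 2 d, 4 d or 6 d to raise the pressure in the lung circulation. Each of the 5 groups had 2 samples, lettered 1a and 1b. The labels give no strain, age or sex. They do not state that 1a and 1b were separate animals, so every p-value measures a spread between samples that could be technical. The Norm samples' free-text description mentions a rejection, as in a transplant, whereas their titles do not, and grouping followed the titles.

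Several arrays bear on the results. The A array titled Norm 1a stood in the B table, where its Spearman correlation with the B arrays was -0.00277 to 0.00963, and it was left out, so that 29 of 30 arrays were used and the A type had a single Norm array, 1b. That A array, over genes measured on both types, correlated best with the sample labelled 4 d 1a on B (Pearson r = 0.160, against 0.0178 with its own label, 1303 genes) and on C (0.153, against 0.0253, 1322 genes), while the A array labelled 4 d 1a correlated with its own label at -0.0117 and -0.0272, and best with 6 d 1b on B (0.0511) and 10 h 1b on C (0.0451), not with a Norm sample. On B these own-label values, 0.0178 and -0.0117, were the lowest of the 9 A arrays, whose others were 0.0409 to 0.205. On C the value of 4 d 1a was also the lowest, but that of 4 d 1b (0.0201) lay below that of Norm 1b. A best match in another group was not limited to these arrays. On B the A array labelled 6 d 1b correlated best with 2 d 1b (0.103, against 0.0409 with its own label). The labels of the 2 A arrays Norm 1b and 4 d 1a are in doubt, and the data do not settle which samples they are. Each is named by its label here, and the main results that rest on them are also given without both where that can be done. At 2 d the ratio of the 3′ to the 5′ Gapdh control probe set, a sign of RNA integrity, was 3.64 to 4.60, against 0.786 to 1.68 on all other arrays. Lung epithelial and endothelial markers were detected in every group, except that Sftpd, a surfactant protein gene, was at the detection floor in Norm and at 10 h. In such bulk tissue, fewer cells of a type and less RNA per cell cannot be told apart.

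Heat shock proteins hold unfolded proteins and let them fold, or pass them on for breakdown. Hsp70 proteins bind short exposed stretches in an ATP cycle that is started by J domain proteins such as Dnajb1 and ended by exchange factors such as Hsph1. Hsp90 finishes the folding of kinases and steroid receptors, the small heat shock proteins hold clients without ATP, the Hspd1 and Hspe1 chaperonin works in mitochondria, and Hspa5 (BiP) works in the endoplasmic reticulum (ER). Hspa1a and Hspa1b are the stress-inducible Hsp70 genes, switched on by heat shock factor 1, whereas Hspa8 is made at all times. Hspa5 is a classical target of the unfolded protein response.

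RefSeq promoter windows (GRCm38.p6, 250 bases before to 50 after a gene's start) were available for 8 of the 10 genes, in 11 windows. They are shown for Hspa1a and Hspa1b, whose levels went together, and for 2 genes whose levels did not follow them. Of these, Hspe1 holds facing heat shock units as Hspa1a and Hspa1b do, and Hspa5 holds an ER stress element. In the first 3, capitals mark facing heat shock units, the letters GAANNTTC or TTCNNGAA joined where they overlap; in Hspa5 they mark an ER stress element, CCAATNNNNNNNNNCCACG. The windows are Hspa1a, chr17:34972107-34972406 on the minus strand, Hspa1b, chr17:34959189-34959488 on the minus strand, Hspe1, chr1:55087898-55088197 on the plus strand, and Hspa5, chr2:34771840-34772139 on the plus strand.
Hspa1a: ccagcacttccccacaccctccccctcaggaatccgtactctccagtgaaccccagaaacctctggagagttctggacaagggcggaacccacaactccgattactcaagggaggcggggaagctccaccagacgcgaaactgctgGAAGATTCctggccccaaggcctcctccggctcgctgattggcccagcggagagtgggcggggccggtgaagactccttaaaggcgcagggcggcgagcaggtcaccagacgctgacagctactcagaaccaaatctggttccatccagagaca
Hspa1b: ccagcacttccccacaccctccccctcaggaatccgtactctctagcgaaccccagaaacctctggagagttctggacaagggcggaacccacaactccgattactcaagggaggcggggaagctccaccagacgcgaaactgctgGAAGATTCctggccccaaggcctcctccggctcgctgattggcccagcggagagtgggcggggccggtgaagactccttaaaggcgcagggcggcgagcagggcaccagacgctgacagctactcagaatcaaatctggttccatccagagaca
Hspe1: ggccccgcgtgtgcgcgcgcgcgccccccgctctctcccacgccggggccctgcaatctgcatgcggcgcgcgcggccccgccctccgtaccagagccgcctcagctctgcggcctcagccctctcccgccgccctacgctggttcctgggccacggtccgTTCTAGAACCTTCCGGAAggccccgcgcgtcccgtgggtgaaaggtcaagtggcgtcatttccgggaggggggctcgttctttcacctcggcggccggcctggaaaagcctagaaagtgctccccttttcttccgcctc
Hspa5: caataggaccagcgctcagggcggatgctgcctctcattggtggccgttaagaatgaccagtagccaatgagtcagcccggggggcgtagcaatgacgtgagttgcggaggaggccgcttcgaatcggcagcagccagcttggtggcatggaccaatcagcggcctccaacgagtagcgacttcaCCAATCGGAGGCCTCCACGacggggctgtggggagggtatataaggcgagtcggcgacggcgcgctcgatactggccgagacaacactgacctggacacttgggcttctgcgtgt
The Hspa1a and Hspa1b windows differed at 4 of 300 bases (98.7% identity), and both held 1 pair of facing units 104 bases before the start. Facing units, searched on both strands, were present in 6 genes (Hspa1a, Hspa1b, Hspb1, Hspd1, Hspe1 and Hsph1) and in 15.1% of all 32851 windows. A run of 3 units (GAANNTTCNNGAA or TTCNNGAANNTTC), which contains the shorter motif, was found in Hspd1, Hspe1 and Hsph1 and in 0.603% of all windows; Hspe1 and Hspd1 lie head to head, and the Hspe1 window shares 285 bases with 1 of the 2 Hspd1 windows on the other strand. The ER stress element was found in Hspa5 and in 0.119% of windows. The letters ACGTG, the core of the element that hypoxia-inducible factors bind, were found in Dnajb1, Hspa5, Hspd1 and Hsph1, not in the windows of Hspa1a or Hspa1b, and in 19.6% of all windows. In Dnajb1 they were found only in the more downstream of its 2 windows, and in Hspd1 only in the window without heat shock units. These are matches of letters and say nothing of binding.

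The inducible Hsp70 genes were the members that stood apart, and they did so at 10 h. Hspa1b (A probe set 100946_at) read 613 intensity units on the Norm array, 2457 and 1997 on the 10 h arrays, 483 and 497 at 2 d, 575 and 559 at 4 d, and 369 and 352 at 6 d. Both 10 h arrays were high, the 6 d arrays were the lowest, and the 10 h values overlapped with no other group. Hspa1a (A probe set 93875_at) read 453 on the Norm array, 2061 and 1931 at 10 h, 524 and 727 at 2 d, 650 and 462 at 4 d, and 573 and 343 at 6 d. Again both 10 h arrays lay above the other 7, and Norm, 2 d, 4 d and 6 d overlapped or lay side by side. The 2 genes encode nearly the same protein, and the probe sets may each read transcripts of both, so they are not independent measurements.

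**Figure D1:**
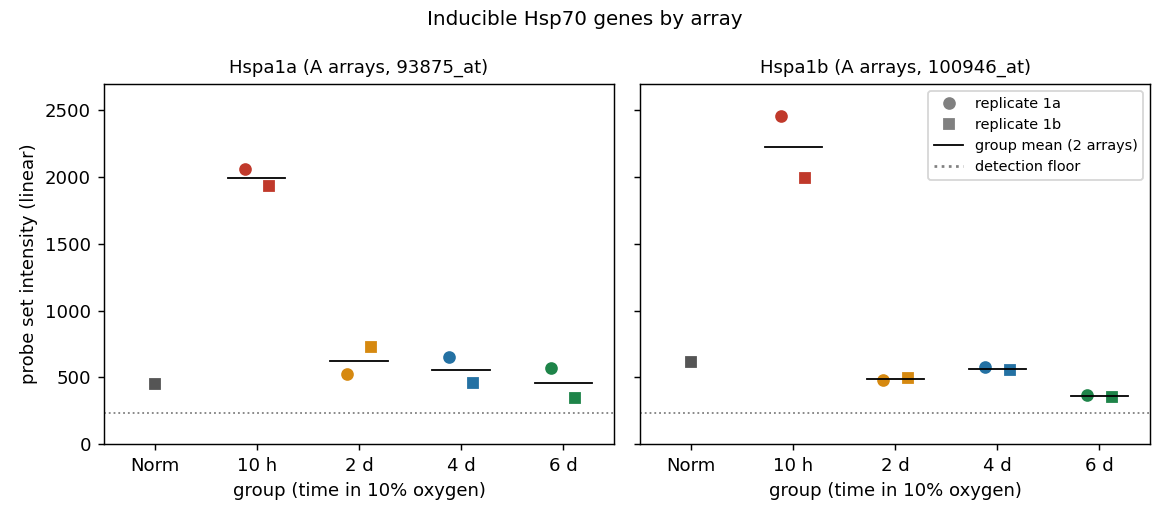
Probe set intensity (linear scale, A arrays) of Hspa1a and Hspa1b by group, 1 point an array, with a bar at the mean of a group of 2 arrays and a dotted line at the detection floor. The 10 h points lie at 1931 to 2061 for Hspa1a and 1997 to 2457 for Hspa1b, and the 7 others at 343 to 727 and 352 to 613.

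The lowest 10 h value was 3.26 times the highest of the 7 other arrays for Hspa1b and 2.66 times for Hspa1a. Ordered by this ratio, they were in place 2 and place 4 of the 8392 probe sets tested on A, next to Fst, an activin antagonist, and the metallothionein Mt1 in places 1 and 3. Both 10 h arrays were above all 7 others in 2 of the 10 member probe sets tested on A and in 5.09% of all A probe sets, and were at least 2 times as high in the same 2 members and in 0.0953% of all A probe sets. The remaining 8 member probe sets did not separate 10 h from the other groups.

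Each test used log2 intensities floored at the 40th percentile of their array type (236.05 on A), fitted in limma with Benjamini-Hochberg adjustment over all 25801 tested probe sets and a threshold of 0.05. 13 of the 16 member probe sets could be tested, 10 on A and 3 on C. At 10 h, Hspa1b was 1.85 ± 0.27 log2 units (SE) above Norm, or 3.61-fold, with an unadjusted p of 0.000121 and a limma adjusted p of 0.259. Hspa1a was 2.14 ± 0.40 log2 units above Norm, or 4.40-fold, with a limma adjusted p of 0.297. Ranked by p over all tested probe sets, Hspa1b was in place 11 and Hspa1a in place 48. Ranked by size of positive change, Hspa1b was in place 24 and Hspa1a in place 7. Neither passed the adjusted threshold, which 0% of all probe sets passed in this comparison, and 2 of the 13 member probe sets had an unadjusted p under 0.05 where 6.11% of all probe sets did. The comparison rests on the lone A array labelled Norm 1b, and the other array of doubtful label, 4 d 1a, read 575 for Hspa1b and 650 for Hspa1a, also below both 10 h values.

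The comparison of 4 d with 10 h uses no Norm array. Hspa1b at 4 d differed from 10 h by -1.97 ± 0.22 log2 units (SE, 3.91-fold lower, unadjusted p = 1.74e-05, limma adjusted p = 0.0540, place 8 of all probe sets by p). Hspa1a differed by -1.86 ± 0.32 (3.64-fold lower, limma adjusted p = 0.152; without both A arrays of doubtful label, -2.11, limma adjusted p = 0.0773). The adjusted p of Hspa1b lies just over the threshold, and it was under it in 11 of 20 other settings, among them the fit without both A arrays of doubtful label (-1.99, limma adjusted p = 0.0383) and the fits without sample 4 d 1a (0.0476), Norm 1a (0.0431) or Norm 1b (0.0392). It was over the threshold in the other 9, which were the replicate block (0.102), the fit with no 2 d arrays (0.148), and the fits without sample 10 h 1a (0.181), 10 h 1b (0.137), 2 d 1a (0.167), 2 d 1b (0.170), 4 d 1b (0.0759), 6 d 1a (0.179) or 6 d 1b (0.181). As fitted, 0 of 13 member probe sets passed against 0.0233% of all, and 2 had an unadjusted p under 0.05 against 8.08% of all. In the contrast of 4 d and 6 d together against 10 h and 2 d together, Hspa1b differed by -1.20 ± 0.16 (limma adjusted p = 0.0847) and Hspa1a by -1.17 ± 0.23 (limma adjusted p = 0.167); 0 of 13 passed against 0.0155% of all (Hspa1b passed in 3 of 19 other settings, 1 of them the fit without Norm 1b, 0.0474), and 2 had an unadjusted p under 0.05 against 11% of all. Without both A arrays of doubtful label, Hspa1b differed by -1.21 (limma adjusted p = 0.0770) and Hspa1a by -1.29 (limma adjusted p = 0.109), and neither passed.

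The high level was seen on the 10 h arrays alone. At 2 d Hspa1b was -0.32 (95% interval -0.95 to 0.31) and Hspa1a 0.44 (-0.46 to 1.35) log2 units from Norm. At 6 d Hspa1b differed from Norm by -0.77 ± 0.27 (1.70-fold lower, unadjusted p = 0.0227, limma adjusted p = 0.443), and it was the lone member with an unadjusted p under 0.05 in that comparison, where 0% of all probe sets passed the adjusted threshold and 9.17% had an unadjusted p under 0.05. At 6 d Hspa1a differed from Norm by -0.03 (-0.94 to 0.87). Both genes were high at 10 h. At 6 d they lay differently relative to the single Norm array, and that difference between the genes was not tested.

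A second Hspa1a probe set, 167374_f_at on the C arrays, lay near or below the detection floor (200.93). It read 24 and 296 in the Norm samples, 311 and 155 at 10 h, and 12.8 to 28.6 at 2 d, 4 d and 6 d, and was above the floor on 2 of 10 arrays. At 10 h it differed from Norm by 0.04 ± 0.24 (95% interval -0.51 to 0.58, limma adjusted p = 1), with 1 array above and 1 below the floor in each of the 2 groups. The C probe set therefore does not show the separation of the A probe sets at 10 h, and its values after 10 h have only an upper bound.

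Marker sums and control ratios of the 10 h A arrays were also set against the Norm array. Of those given here, only the skeletal muscle sum lay outside the range of all other groups on both 10 h arrays. The summed intensity of 8 skeletal muscle markers on A was 990 to 1463 at 10 h, with 5 of 8 (Acta1, Atp2a1, Myh1, Mylpf and Tnnt3) at the floor, against 9887 on the Norm array with 2 (Ckm and Myh4) at the floor. At 4 d the same sum was 4892 to 8001, and at 2 d and 6 d it was 2856 to 3172. The 5 lung epithelial markers on A summed to 26494 and 53235 at 10 h, against 54534 on the Norm array, the 6 endothelial markers to 24464 and 36094, against 33933, and the 3 lymphocyte markers to 2282 and 2309, against 3355. The actin 3′ to 5′ ratio was 0.0862 and 0.517 on the 10 h A arrays, against 0.644 on the Norm array, and the Gapdh ratio 0.909 and 1.11, against 1.19. The part of tissue make-up and RNA quality in the 10 h values was not tested.

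Dnajb1, the J domain protein that loads clients on inducible Hsp70, did not go with it. Its A probe set read 694 on the Norm array, 758 and 707 at 10 h, 518 and 616 at 2 d, 786 and 563 at 4 d, and 706 and 686 at 6 d. Its C probe set read 687 and 1055 in Norm, 990 and 1173 at 10 h, 774 and 805 at 2 d, 1047 and 922 at 4 d, and 785 and 789 at 6 d. On A the 10 h arrays lay within the range of the other groups, and on C they included the highest array and overlapped with Norm and 4 d. The 10 h difference from Norm was 0.08 (95% interval -0.63 to 0.78) on A and 0.34 (-0.32 to 0.998) on C, so that an increase of the size seen for Hspa1b lay outside both intervals.

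Hsph1 (Hsp110), the nucleotide exchange factor of Hsp70, read 1033 on the Norm array, 1013 and 1305 at 10 h, 1626 and 1383 at 2 d, 1577 and 1031 at 4 d, and 1040 and 819 at 6 d. Its highest group was 2 d, which did not overlap with 6 d. At 6 d it differed from 2 d by -0.70 ± 0.25 log2 units (unadjusted p = 0.0235, limma adjusted p = 0.287), the lone member of 13 with an unadjusted p under 0.05 in that comparison, where 13% of all probe sets had one; 0 of 13 members and 0.062% of all passed the adjusted threshold. At 10 h it was 0.16 (-0.56 to 0.87) from Norm. The 2 d arrays are those with the raised Gapdh ratio and with marker sums that differ from Norm (given with Dnajc5), and the part of either in this difference was not tested.

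Hspa8, the constitutive Hsp70 of the cytosol, read 3740 on the Norm array, 3698 and 4406 at 10 h, 5017 and 3821 at 2 d, 4899 and 3431 at 4 d, and 3408 and 3593 at 6 d. The 10 h arrays lay within the range of the other groups, and both 6 d arrays and 1 of the 4 d arrays were the lowest. Its 10 h difference from Norm was 0.11 (-0.48 to 0.70), and its highest array was 1.47 times its lowest, the narrowest span among the 8 other member probe sets tested on A.

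Hsp90aa1, the inducible cytosolic Hsp90, read 7200 on the Norm array, 7034 and 6996 at 10 h, 6349 and 5128 at 2 d, 9167 and 5720 at 4 d, and 6317 and 6099 at 6 d on probe set 95282_at. The 10 h arrays lay within the other groups' range, and the difference from Norm was -0.04 (-0.68 to 0.61). The other probe sets for this gene, 161869_i_at on A (4.83 to 130) and 105094_at on B (3.01 to 33.9), were never above the floor and were not tested.

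Hspb1 (Hsp25 in mouse), a small heat shock protein that holds clients and caps actin filaments, was hardly measured by these arrays. Its A probe set read 36.3 to 138 and was below the floor on all 9 arrays. Its C probe set, 171538_f_at, read 27 and 362 in Norm, 29 and 502 at 10 h, 87 and 19 at 2 d, 25 and 23 at 4 d, and 174 and 31 at 6 d. Each of the Norm and 10 h groups had 1 array above the floor, both lettered 1b, and no array after 10 h was above it. The 10 h difference from Norm on C was 0.24 log2 units within a wide spread, so the arrays give no level for Hspb1 in most samples.

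No probe set of the mitochondrial chaperonin genes passed the test in any comparison. Hspd1 (Hsp60) read 5403 on the Norm array, 5881 and 4961 at 10 h, 5442 and 6128 at 2 d, 7743 and 5425 at 4 d, and 5125 and 4646 at 6 d on probe set 93277_at. Both 6 d arrays lay below the Norm, 2 d and 4 d arrays and overlapped with 10 h. A second, dim probe set (161140_r_at) read 261 to 583 and put its lowest and highest values on other arrays. Hspe1 (Hsp10), the lid of the Hspd1 barrel, read 1730 on the Norm array, 1782 and 1436 at 10 h, 2533 and 1535 at 2 d, 1709 and 1605 at 4 d, and 1240 and 1721 at 6 d, with overlapping groups. Although the 2 genes share a promoter region, the single high Hspe1 array, 2 d 1a, was not the single high Hspd1 array, 4 d 1a. At 10 h they differed from Norm by 0.00 (-0.56 to 0.56) for the bright Hspd1 probe set and -0.11 (-0.85 to 0.62) for Hspe1.

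Hspa5, the ER Hsp70, read 4384 on the Norm array, 4153 and 4865 at 10 h, 5468 and 5981 at 2 d, 7781 and 5124 at 4 d, and 4865 and 3902 at 6 d. The 2 d and 4 d arrays lay above all Norm, 10 h and 6 d arrays, with 1 array, 4 d 1a, far above the rest. At 4 d the difference from Norm was 0.53 (95% interval -0.09 to 1.15, unadjusted p = 0.0861, limma adjusted p = 0.863) and from 10 h it was 0.49 (-0.02 to 0.997, unadjusted p = 0.0559, limma adjusted p = 0.631). Neither passed.

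The array labelled 4 d 1a was the highest of the 9 A arrays in 4 of these 8 probe sets (Hspa5, Hspd1 93277_at, Hsp90aa1 and Dnajb1), and 2 d 1a in 3 (Hspe1, Hspa8 and Hsph1). 4 d 1a is 1 of the 2 arrays of doubtful label, and the other 4 d array lay lower in those 4. Its part in the 4 d values of these genes was not tested.

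**Figure D2:**
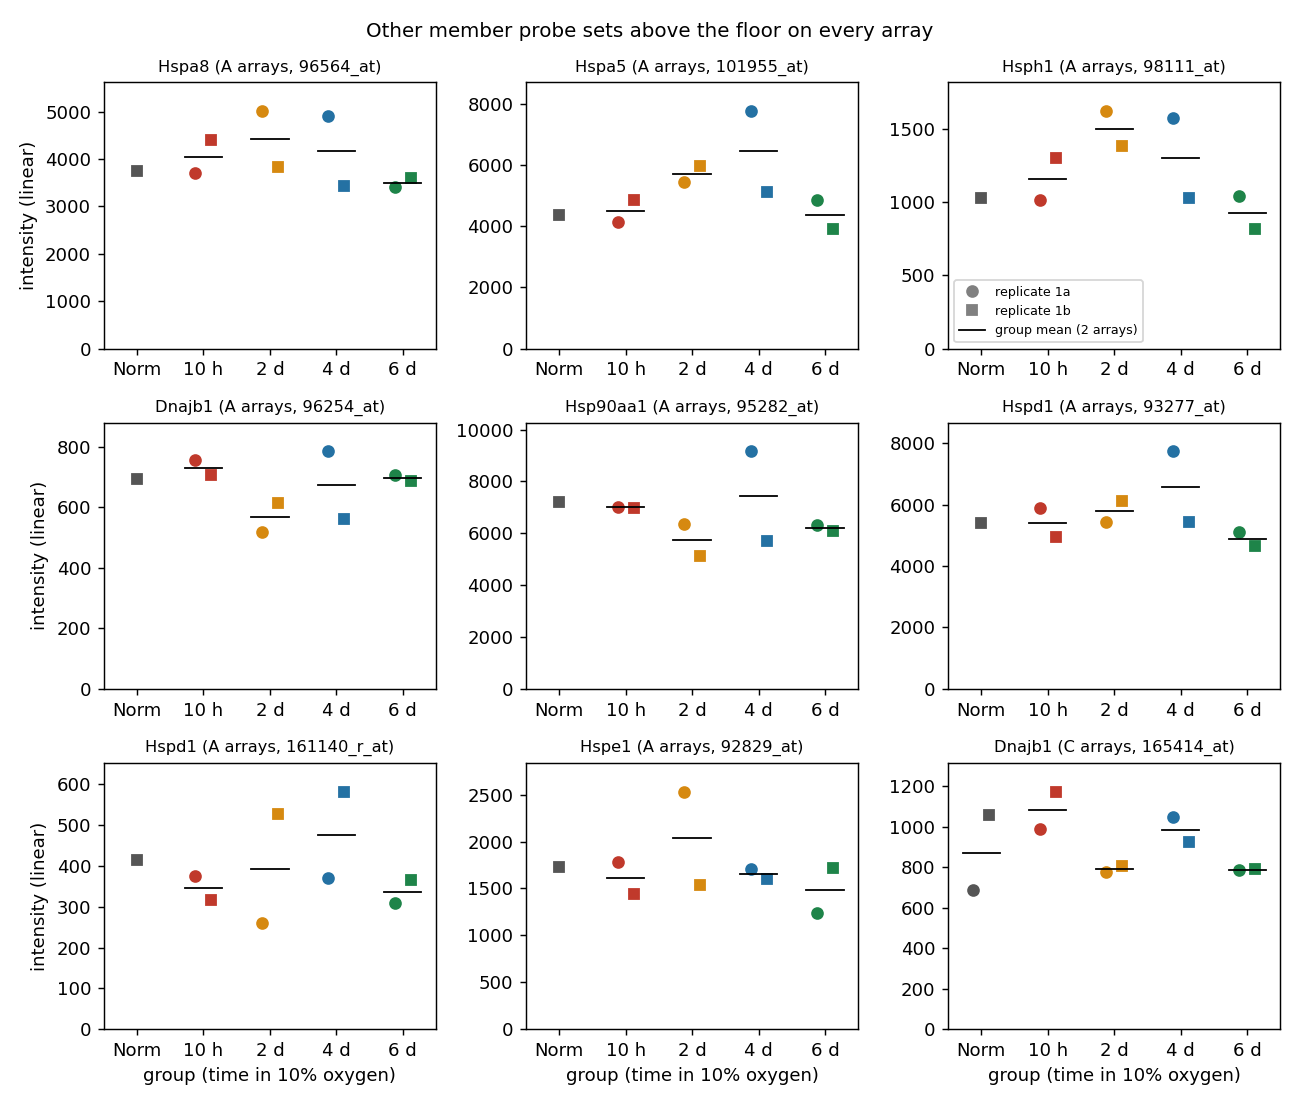
Probe set intensity (linear scale, axes from 0) by group for the other member probe sets above the floor on every array, 1 point an array and a bar at the mean of a group of 2 arrays. In each panel at least 1 of the 10 h arrays lies within the range of the other arrays, and the 4 d 1a point is highest in the panels of Hspa5, Hspd1 93277_at, Hsp90aa1 and the A probe set of Dnajb1.

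The other 11 member probe sets together differed from Norm at 10 h by -0.27 to 0.34 log2 units, 7 higher and 4 lower, and the smallest unadjusted p among them was 0.272. The median of all 13 was 0.08, against 0 over all tested probe sets. At 2 d, 0 of 13 members passed where 1.86% of all probe sets did, and 0 had an unadjusted p under 0.05 where 18.9% of all did. At 4 d, 0 of 13 passed against 0.00775% of all, and 0 had an unadjusted p under 0.05 against 6.13% of all. So the share of members past either threshold at 2 d and 4 d was not above that of all probe sets. At 6 d, 12 of 13 lay below Norm, with a median of -0.16, while over all probe sets 48.1% lay above Norm and the median was 0. For the C probe sets of Hspa1a and Hspb1, both 6 d arrays and Norm 1a were below the floor. Apart from Hspa1b, the smallest unadjusted p was 0.276, and the members of an array type share its Norm arrays.

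**Figure D3:**
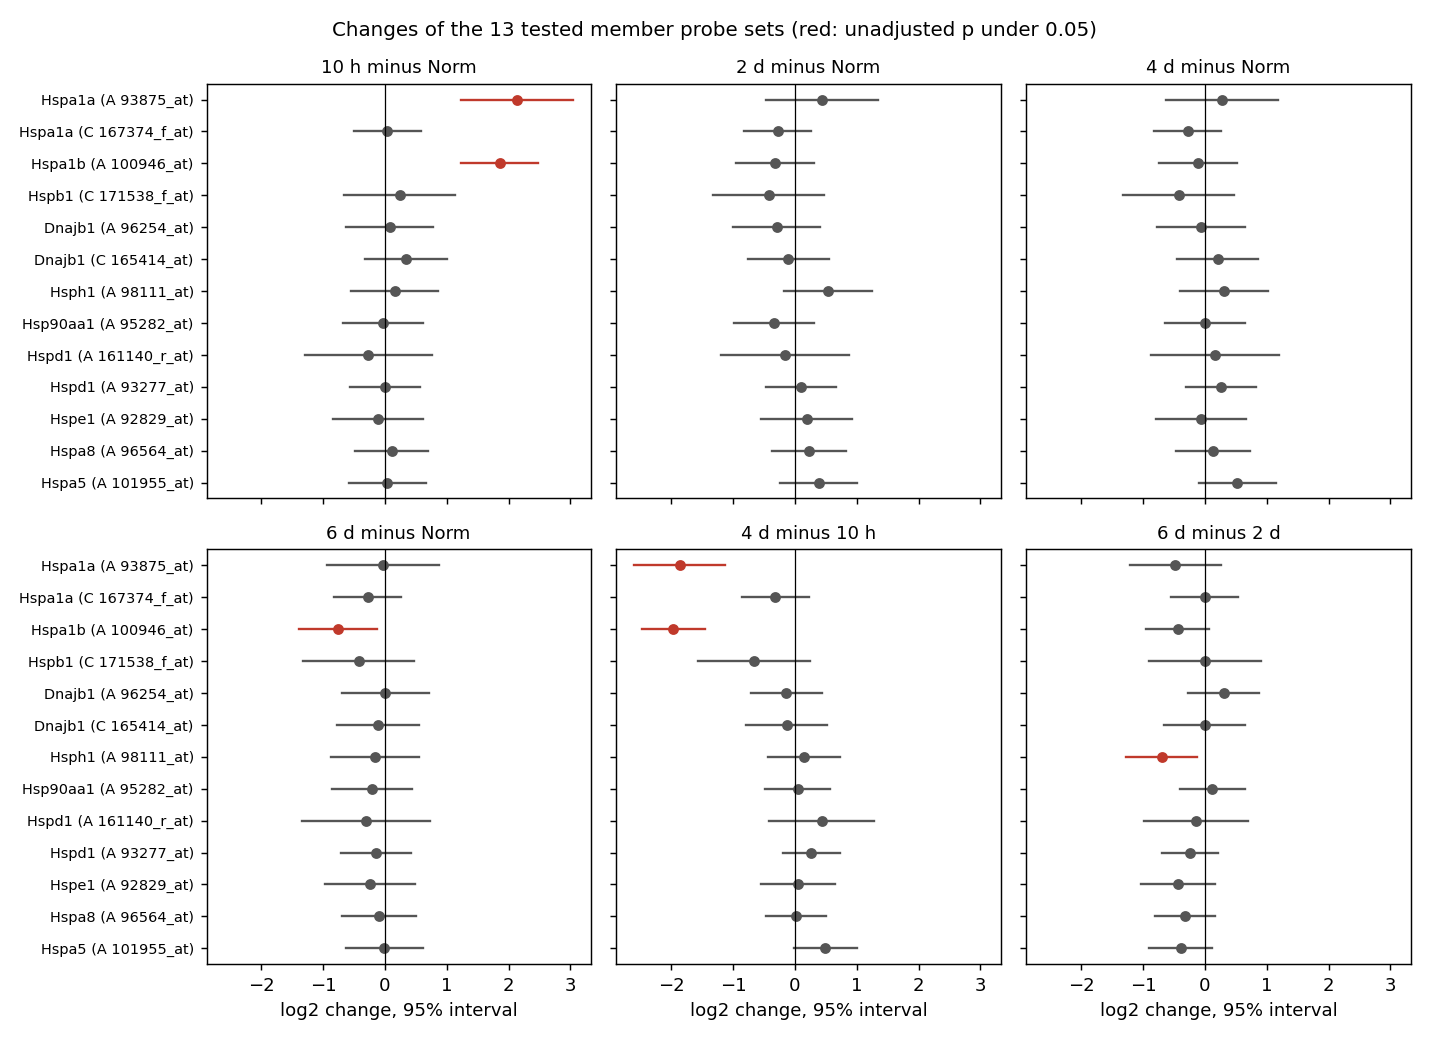
Log2 change of the 13 tested member probe sets in 6 comparisons, with 95% intervals from limma, red where the unadjusted p is under 0.05. The A probe sets of Hspa1a and Hspa1b stand at 2.14 and 1.85 for 10 h minus Norm and at -1.86 and -1.97 for 4 d minus 10 h, and the intervals of the other 11 include 0 in both panels.

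By the rule of highest Pearson correlation of floored log2 level over the 9 A arrays, the genes most like Hspa1b were Mx1 (r = 0.960), Ccl12 (0.960), Zfp213 (0.958), Ccn1 (0.957) and Tgfb1i1 (0.955). Mx1 and Ccl12 were above the floor on 0 of the other 7 arrays, so they passed the filter on low values through the 10 h arrays. Their correlations set 2 high values against a constant. Zfp213 was above the floor on 3 of the other 7 arrays, so its correlation also rests in part on floored values. Ccn1 and Tgfb1i1 were above the floor on all 9 arrays: Ccn1 averaged 1436 at 10 h against 564 on the other 7 arrays, and Tgfb1i1 5140 against 3315. The genes most like Hspa5 were Clpb (0.920), Ctsl (0.896), Tpm1 (0.880), Tmed9 (0.864) and Fip1l1 (0.862), at lower correlations. Fip1l1 was above the floor on 0 of the 10 h arrays and 3 of the other 7, so its correlation rests largely on floored values. Clpb lay near the floor (187 to 352). The points share arrays and groups, so these values are descriptions.

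The rest of the chaperone network was read from lists of genes, 1 probe set a gene. Of 8 listed Hsp70 and Hsp110 relatives, among them the microsomal Hspa13, 3 were higher at 10 h than in Norm with a median of -0.09. None of the list had an unadjusted p under 0.05. Over all 13039 genes, 47.3% were higher, the median was 0 and 5.59% had such a p. Hspa1l, the neighbour of the inducible pair with a testis-biased role, read 465 and 368 at 10 h against 270 on the Norm array (0.62 ± 0.43, limma adjusted p = 0.914). Hspa4l (Hsp110 family) passed at 2 d: it read 1013 and 834 at 2 d against 2008 and 2209 in Norm, and fell by 1.20 on the log2 scale (limma adjusted p = 0.0321). At 10 h it read 1966 and 1890, and at 6 d 1106 and 947 (-1.04 from Norm, limma adjusted p = 0.225). Hspa12a, an atypical Hsp70, read 1027 and 1111 at 10 h against 1128 and 495 in Norm, and Hspa13, a microsomal Hsp70, 1559 and 1141 against 1244 and 1124, so both overlapped with Norm.

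Of 18 J domain proteins, 10 were higher at 10 h than in Norm with a median of 0.04 and 0 had an unadjusted p under 0.05. Dnajc5 (cysteine string protein of secretory vesicles) was the lone one to pass in any of the 7 comparisons: it read 2127 and 2114 at 2 d against 4556 and 3695 in Norm, and fell by 0.95 (limma adjusted p = 0.0298). Both genes that passed, Hspa4l and Dnajc5, were lower at 2 d, in the samples with the raised Gapdh ratio. In that comparison 1.57% of all 13039 genes passed. On the A arrays of 2 d the lung epithelial markers summed to 110477 and 121853, against 54534 on the Norm array, the red cell markers to 36320 and 47486, against 16813, and the heart muscle markers to 12815 and 13817, against 23811. The part of RNA integrity and tissue make-up in these changes was not tested. Dnajb5 had 79.3 and 86.8 at 2 d, below the floor of its array type, against 499 and 434 in Norm (limma adjusted p = 0.0819). It was also below that floor on both 4 d arrays (283 and 47.4) and both 6 d arrays (255 each). Dnajc7, which has both a J domain and Hsp90-binding repeats, read 1314 and 2263 at 10 h against 1005 on the Norm array, and its 2 arrays at 4 d were as far apart as 3003 and 967.

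Among 14 co-chaperones of Hsp70 and Hsp90, 10 were higher at 10 h than in Norm, with a median of 0.11. Fkbp5, an immunophilin that binds Hsp90 with the glucocorticoid receptor, read 1322 and 1214 at 10 h against 528 on the Norm array (1.26 ± 0.26, unadjusted p = 0.00115, limma adjusted p = 0.372), and it was the lone one of the list with an unadjusted p under 0.05. At 4 d it read 733 and 607, which differed from 10 h by -0.92 (limma adjusted p = 0.257). St13 (Hip), which steadies the bound state of Hsp70, read 3945 and 4391 at 10 h against 3076 and 3769 in Norm, and was highest at 2 d (5695 and 5168; 0.67 from Norm, limma adjusted p = 0.0801). Bag4, a BAG domain exchange factor, read 1153 and 958 at 10 h against 1069 and 922 in Norm, and was lowest at 2 d (560 and 794).

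Of the 8 subunits of the cytosolic chaperonin TRiC, which folds actin and tubulin, 7 were higher at 10 h, with a median of 0.25 and 1 unadjusted p under 0.05, Cct8 (934 and 980 at 10 h against 643 on the Norm array). Cct8 was also higher than that array on each of the 2 d, 4 d and 6 d arrays (955 to 1273), so its high values were not those of the 10 h arrays alone. Cct4 read 2410 and 2501 at 10 h against 2075 on the Norm array, and Cct2, the exception in sign, 579 and 527 against 650.

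The small heat shock proteins did not follow Hspa1a and Hspa1b either. Of 7, 2 were higher at 10 h than in Norm, with a median of -0.12. Hspb6 (Hsp20), abundant in smooth muscle, read 1872 and 1694 at 10 h against 2736 and 2319 in Norm (-0.50 ± 0.15, unadjusted p = 0.00732, limma adjusted p = 0.555), and the 2 groups did not overlap. Hspb6 was also low at 2 d (1756 and 1544) and 6 d (1704 and 1786), but not at 4 d (2291 and 2455). Hspb3, a small heat shock protein of muscle, read 589 and 850 at 10 h against 802 and 270 in Norm. Of the heat shock factor genes, Hsf2 and Hsbp1, a binding protein of heat shock factor 1, were tested, and neither had an unadjusted p under 0.05 in any of the 7 comparisons; Hsf2 read 536 and 621 at 10 h against 529 and 476 in Norm.

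The ER list of 25 tested chaperones and unfolded protein response genes had a median of -0.02 at 10 h, with 12 higher. The 2 with a positive change and an unadjusted p under 0.05 were Atf4, a transcription factor of the integrated stress response (7146 and 6120 at 10 h against 3837 on the Norm array, 0.79 ± 0.24, limma adjusted p = 0.605), and Ppp1r15a (Gadd34), a phosphatase subunit of the same response (946 and 857 against 602, limma adjusted p = 0.817). Ppp1r15a also read 830 and 840 at 2 d and 876 and 836 at 6 d, so its high values were not those of the 10 h arrays alone. Pdia3, an ER disulfide isomerase, read 855 and 1413 at 10 h against 2687 on the Norm array (-1.29 ± 0.55, limma adjusted p = 0.796). Hsp90b1 (Grp94), the ER Hsp90, read 5111 and 5237 at 10 h against 6870 (-0.41 ± 0.32), and it was the lone tested gene of the Hsp90 relatives. The 8 mitochondrial chaperones and proteases tested had a median of -0.02, 4 of them higher. Among them Hspa9 (mortalin), the mitochondrial Hsp70, read 2063 and 2160 at 10 h against 2376 on the Norm array, and Grpel1, its exchange factor, read 211 and 226, below the floor, against 293. Clpp, a matrix protease subunit, read 801 and 691 against 735.

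The immediate early genes, which many stresses switch on quickly, were the list with the largest median at 10 h, 0.52 over 16 genes, with 14 higher and 5 with an unadjusted p under 0.05. Over all 13039 genes, 47.3% were higher and 5.59% had such a p in either direction. Atf3 read 1583 and 1662 at 10 h against 699 on the Norm array (1.21 ± 0.24, limma adjusted p = 0.348), and Klf4 read 6936 and 7949 against 4761 (0.64 ± 0.19, limma adjusted p = 0.604). Ier2 read 3012 and 3319 at 10 h against 3150, level with the Norm array, and Junb read 1536 and 1332 against 989. At 2 d Junb read 1461 and 1462, between its 10 h values, so its high values were not those of the 10 h arrays alone. At 4 d, 11 of the 16 were lower than at 10 h with an unadjusted p under 0.05, against 9.13% of all genes with one in either direction, where the median was -0.65 and the all-gene median 0; Atf3 had the largest of these (-1.35 ± 0.20, limma adjusted p = 0.0865). Hspa1a and Hspa1b lay beyond each of these genes in both comparisons, and none of the lists' genes passed in either.

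**Figure D4:**
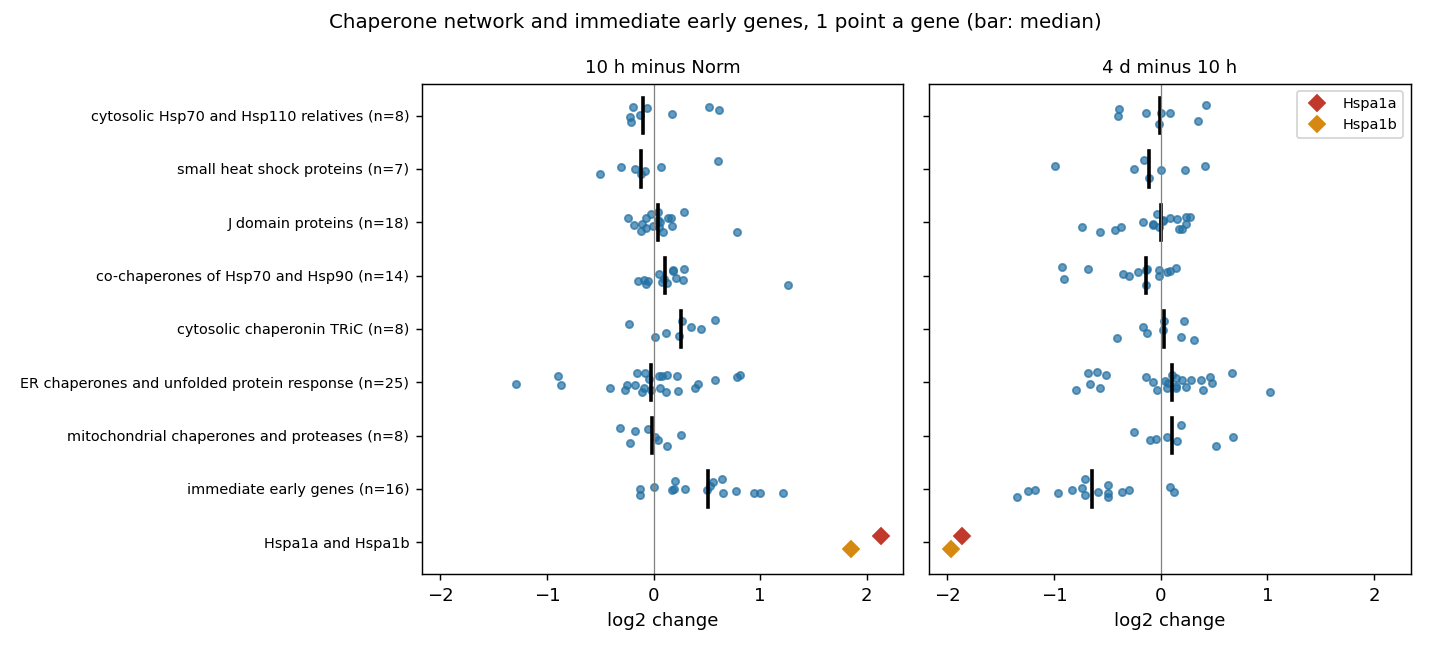
Log2 change at 10 h minus Norm and 4 d minus 10 h, 1 point a gene, for lists of the chaperone network and the immediate early genes, with a bar at each median and diamonds for Hspa1a and Hspa1b. The medians of the chaperone lists lie at -0.12 to 0.25 in the first panel, the immediate early genes at 0.52, and both diamonds lie beyond every point.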

How the data were processed

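Intensities were measured on 30 arrays. The deposited values were linear probe set intensities, 1 per array and probe set; the labels do not name the program that made them. With 2% left out at each end, the mean was 800.2 to 800.4 on every array used, so no further normalization was applied. Groups came from the titles. The members and lists were chosen with earlier results of these data known.

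Intensities under a floor, the 40th percentile of all values (236.05 for A arrays, 297.36 for B and 200.93 for C), were set to it. Probe sets above it on at least 2 arrays were tested, with control probe sets left out. Separately for A, B and C arrays, 5 group means were fitted to log2 intensity with limma (version 3.58.1, R 4.3.3; lmFit, eBayes with trend), and the two-sided p-values were Benjamini-Hochberg adjusted over all 25801 tested probe sets. Changes are on the floored log2 scale and understate differences of dim probe sets. The lone A Norm array is assumed to vary as the other groups do. The fit was tested on simulated data. The number of arrays limits the precision.

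Genes were named from the platform annotation. In the lists, a gene with several probe sets was represented by one with no letter before _at first, then by the brightest relative to its array type's median. The text names every member, list genes that passed in any comparison, the 2 of each list with the smallest p at 10 h and in the late against early contrast, and the 5 genes most like Hspa1b and Hspa5; genes beside Hspa1a and Hspa1b in the order at 10 h were named after their values were seen. Replicate letters were checked for pairing: over 26 pairs of groups, same-lettered samples' deviations correlated at -0.158 to 0.134, with 1 over 0.1, so the letters were not treated as pairs. The alternatives tried were the floor, the filter, 2 normalizations, the variance trend, the adjustment, the replicate block, left-out arrays and each sample left out. Promoter sequence came from RefSeq (GRCm38.p6).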

Additional observations from a re-analysis of the deposited data

How the results depend on the processing

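No member change with an unadjusted p under 0.05 reversed its direction under any alternative. The count of member probe sets past the threshold stayed at 0 for 10 h, 2 d, 4 d and 6 d against Norm and for 6 d against 2 d in all alternatives run. For 4 d against 10 h it became 1, always Hspa1b, with a lower floor at the 20th percentile (limma adjusted p = 0.0442), with no filter on dim probe sets (0.0381), with a filter of at least 5 arrays (0.0205), with median scaling (0.0437), with quantile normalization (0.0496), with no variance trend (0.0214), with adjustment within an array type (0.0293), and without the A arrays labelled Norm 1b and 4 d 1a (0.0383). Leaving out 1 sample at a time gave 0 to 1, with 1 without 4 d 1a, Norm 1a or Norm 1b. For late against early it became 1, again Hspa1b, with no filter (0.0358) and with at least 5 arrays (0.0365), and 0 to 1 with 1 sample left out, with 1 without Norm 1b (0.0474). The cause of these moves was not tested. Over all alternatives Hspa1b at 4 d minus 10 h was -2.12 to -1.82 (limma adjusted p = 0.0205 to 0.181), and Hspa1a was -2.11 to -1.62 with no call. At 10 h minus Norm, Hspa1b was 1.70 to 2.00 (limma adjusted p = 0.0574 to 0.565) and Hspa1a 2.03 to 2.18 (0.170 to 0.565).

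With the replicate letter as a block, 0 members passed in all 7 comparisons, and Hspa1b at 4 d minus 10 h was -1.97 (limma adjusted p = 0.102). It was also -1.97 (0.148) with no 2 d arrays in the fit. For A comparisons with Norm, leaving out Norm 1b gives no value, alone or with 4 d 1a. A single Norm A array, 2 samples a group and probe sets near the floor limit every statement above.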
